A study of Mus musculus with 12 samples.

Results

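A set of 37 genes of glycolysis and of the response to low oxygen was described in mouse macrophages grown alone or with myeloma cells. The genes were taken by name, and each was read from the probe sets that the array annotation gives to that gene alone, keeping the probe set with the highest mean. Of the 37 genes, 32 were measured in this way, among 22180 genes measured in all. Gpi1 and Eno1 had no annotated probe set under their own symbol, and the probe sets of Aldoa, Bnip3l and Ankrd37 were shared with another gene, so these 5 genes were not analysed here. Ero1l was read under its current symbol Ero1a.

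The study was a layout of 4 groups with 3 arrays each. KO TAMs were macrophages of CD36 knockout genotype that had been cultured for 72 h with 5TGM1, a mouse multiple myeloma cell line, and WT TAMs were wild-type macrophages cultured in the same way. KO macrophages and WT macrophages were primary cells of the same genotypes without the myeloma cells, and all 4 groups were kept in RPMI medium with serum, penicillin and streptomycin. The term TAM (tumour-associated macrophage) here names a culture product and not cells taken from a tumour. The kind of deletion, the age and strain of the mice, the time in culture of macrophages grown alone, the removal of the myeloma cells and the origin of the replicates are not stated in the sources used here, so the p-values measure only the spread between these arrays, which may be technical.

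Glycolysis splits glucose into pyruvate and yields ATP without oxygen. Its enzymes act in order from glucose entry and phosphorylation, through the hexose and triose phosphates, to the later payoff steps. The payoff steps together pay back ATP, though not each of them does, and lactate leaves the cell through monocarboxylate transporters. When oxygen is scarce, prolyl hydroxylases (Egln genes) no longer mark the HIF alpha subunits for destruction. HIF then pairs with Arnt, binds short motifs with the core CGTG and raises many glycolytic genes together with genes of iron, matrix, vessel and mitochondrial adaptation. In macrophages the same factors are also known to respond to inflammatory signals and to lactate. HIF alpha is controlled mainly at the protein level, which arrays of RNA do not read.

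Of the 37 genes, 34 had a RefSeq promoter window (250 bases before to 50 after a start site of the gene, build GRCm38.p6), and Epas1, Ndrg1 and Bnip3l had none in that table. The HIF core motif ACGTG, searched on both strands, stood in a window of 24 of 34 genes (70.6%), against 21.8% of the 27025 genes with a window. GCGTG stood in a window of 21 of 34 genes (61.8%), against 35.2% of those genes. Some genes have several windows, 49 for the 34 genes and 32851 in all. Counted by window, ACGTG stood in 27 of 49 (55.1%), against 19.6% of all windows, and GCGTG in 26 of 49 (53.1%), against 32.4% of all windows. Base composition was not matched, and a match is a run of letters and not a binding site. Among the 10 genes called higher in WT co-culture 8 held ACGTG in a window, as did 14 of the 20 other measured genes with a window. The windows of Mif and P4ha1 are shown because these 2 genes were called in the same direction in the co-culture comparison of both genotypes. Mif encodes a secreted cytokine that keeps macrophages in inflamed tissue, and P4ha1 encodes the catalytic subunit of the prolyl hydroxylase that modifies collagen in the endoplasmic reticulum. Capitals mark the motif letters as read on the strand of the gene, where CACGT is ACGTG of the opposite strand. The Mif window is chr10:75860228-75860527 on the minus strand, with the motif starting at position 30 after the start site. The P4ha1 window is chr10:59323046-59323345 on the plus strand, with ACGTG at position -16 and GCGTG at positions -163 and -126. The annotated P4ha1 gene begins at 59323197, so this window is set on a start site further along the gene.
Mif: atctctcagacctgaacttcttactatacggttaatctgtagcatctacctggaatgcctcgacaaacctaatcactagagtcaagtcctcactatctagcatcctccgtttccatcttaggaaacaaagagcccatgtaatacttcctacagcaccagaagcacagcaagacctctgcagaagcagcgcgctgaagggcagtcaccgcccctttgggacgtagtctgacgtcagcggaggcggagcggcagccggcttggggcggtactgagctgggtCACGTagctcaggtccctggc
P4ha1: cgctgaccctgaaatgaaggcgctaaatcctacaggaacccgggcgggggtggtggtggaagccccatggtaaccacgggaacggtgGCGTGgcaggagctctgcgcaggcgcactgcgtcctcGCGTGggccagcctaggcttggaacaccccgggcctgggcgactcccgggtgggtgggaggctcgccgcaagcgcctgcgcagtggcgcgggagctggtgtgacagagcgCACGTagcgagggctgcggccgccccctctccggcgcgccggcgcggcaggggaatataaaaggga

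Values are log2 of the deposited RMA intensities, given per array in the order of replicates 1, 2 and 3. A level of 5.34 was the median over all genes, and 3 of the 32 genes (Pfkm, Egln3 and Car12) lay below it on average, so the other 29 were read above the middle of the array. Differences are on the log2 scale with their SE. They come from limma over all 22180 genes with all 12 arrays in the fit, and a call is an adjusted p under 0.05 (Benjamini-Hochberg over those genes).

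Facts of the whole series bear on these genes. Cd36 itself read 8.45 to 9.66 in KO TAMs, against 12.14 to 12.53 in WT TAMs, and 8.63 to 8.79 in KO macrophages, against 12.10 to 12.15 in WT macrophages. Xist lay between 3.91 and 4.35 on the 6 KO arrays and between 11.08 and 11.32 on the 6 WT arrays, while the Y-linked Uty, Eif2s3y and Kdm5d were high on KO arrays and low on WT arrays, so genotype and sex of the mice cannot be told apart. The macrophage markers Adgre1, Cd68 and Csf1r read between 10.76 and 13.07 on all 12 arrays, and the lowest value of any of the 8 macrophage markers was 9.12 (Mertk). Of these 8, 4 were called higher and 1 lower in KO co-culture (2.9% and 3.63% of all genes). In WT co-culture 2 were called higher and 2 lower (5.89% and 5.66% of all genes). Of 13 myeloma and plasma cell markers, Jchain, Tnfrsf17, Cd79a, Pou2af1 and Irf4 stayed between 3.28 and 4.85, while Slamf7 (11.78 to 12.56) and Xbp1 (9.66 to 10.21) were high on every array. Fcrl5 ran from 4.64 to 10.75, Cd79b from 5.77 to 9.16, Prdm1 from 7.32 to 8.83 and Sdc1 from 4.76 to 6.87. Derl3 ran from 3.98 to 5.34 and Mzb1 from 5.06 to 5.49. Of the 13, 4 were called lower in WT co-culture (5.66% of all genes) and 1 in KO co-culture (3.63% of all genes). Between TAM groups 2 were called higher in KO TAMs than in WT TAMs (5.03% of all genes). The mean of 13 stromal markers was 7.43, 7.06 and 6.06 in KO TAMs, against 7.86, 8.96 and 8.04 in WT TAMs, and 5.66, 5.61 and 5.59 in KO macrophages, against 7.53, 7.59 and 7.44 in WT macrophages. The mean of 9 proliferation genes was 7.53, 7.66 and 7.02 in KO TAMs, against 9.49, 8.84 and 9.73 in WT TAMs, and 7.73, 7.81 and 7.81 in KO macrophages, against 8.99, 9.07 and 9.03 in WT macrophages. In cultures that may hold several cell types, fewer cells of a type and less RNA per cell cannot be told apart.

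Array 1 of KO TAMs and array 2 of WT TAMs were each set against the other arrays of their group. No other array was measured in this way, so the counts do not rank the arrays. KO TAM array 1 lay more than 1 log2 unit from the mean of its 2 fellow arrays in 3 of the 32 genes (9.38%), against 2.48% of all genes. WT TAM array 2 did so in 1 of the 32 genes (3.12%), against 1.87% of all genes. The median SD of the 32 genes was 0.235 in KO TAMs and 0.159 in WT TAMs, with 0.069 in KO macrophages and 0.068 in WT macrophages, against 0.144, 0.14, 0.105 and 0.096 over all genes in the same 4 groups.

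Co-culture of WT macrophages went with higher levels of several HIF targets and late glycolytic enzymes. Against WT macrophages, 10 of 32 genes were called higher in WT TAMs (5.89% of all genes were) and 3 were called lower (5.66% of all genes). The median difference of the 32 genes was 0.34, and 0.0077 over all genes. The arrays of the groups did not overlap for 20 genes that were higher (62.5% of the 32, against 15.5% of all genes) and 3 that were lower in WT TAMs (against 14.6% of all genes). The genes were selected from known function and earlier results of these data, so the count is a description of this set.

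The 4 genes of glucose entry and phosphorylation were split, with 2 positive and 2 negative differences. Of the 4, 1 was called, as lower (5.66% of all genes were called lower). Slc2a1, the glucose transporter GLUT1, read 9.32, 9.83 and 9.22 in WT TAMs, against 9.58, 9.64 and 9.50 in WT macrophages, and the groups overlapped (difference -0.12, 95% interval -0.42 to 0.18). Hk2, the hexokinase known as the inducible form, read 7.54, 8.04 and 7.53 in WT TAMs, against 8.39, 8.45 and 8.45 in WT macrophages. All WT TAM arrays were lower, and the difference of -0.73 ± 0.19 was called (limma, adjusted p = 0.0294), although the call was lost on leaving out any of 5 of the 6 arrays, with an adjusted p up to 0.104. Hk1, the constitutive hexokinase, differed by 0.24 (adjusted p = 0.0734) and Hk3, a form found in myeloid cells, by 0.30 (adjusted p = 0.129). Neither of these 2 was called.

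Among the hexose and triose phosphate steps, 1 of 7 measured genes was called higher and 1 lower in WT TAMs (5.89% and 5.66% of all genes). Tpi1, which interconverts the triose phosphates, read 10.71, 10.58 and 10.52 in WT TAMs, against 10.04, 9.86 and 9.98 in WT macrophages. All WT TAM arrays lay above all WT macrophage arrays, and Tpi1 rose by 0.65 ± 0.09 (1.56-fold, adjusted p = 0.00116). Pfkfb3, whose product makes the activator of phosphofructokinase, read 7.53, 7.99 and 7.34 in WT TAMs, against 8.40, 8.49 and 8.38 in WT macrophages. It fell by 0.80 with an SE of 0.18 (adjusted p = 0.0143), a call lost without WT macrophage array 2, WT TAM array 1 or WT TAM array 3 (adjusted p up to 0.0576). The phosphofructokinase genes Pfkl, Pfkm and Pfkp, the second bifunctional enzyme Pfkfb4 and the aldolase Aldoc were not called, with differences between -0.054 (Pfkfb4) and 0.39 (Pfkl).

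Of the payoff steps, 3 of the 4 measured genes were called higher in WT co-culture (5.89% of all genes were), and Pgk1 was not called. Pgam1, the phosphoglycerate mutase, read 10.24, 10.30 and 10.25 in WT TAMs, against 9.56, 9.61 and 9.69 in WT macrophages. It rose by 0.64 ± 0.09 (adjusted p = 0.000832), with no overlap. Eno2, an enolase known mainly from neurons, read 6.66, 6.49 and 6.21 in WT TAMs, against 5.65, 5.83 and 5.77 in WT macrophages. It rose by 0.71 ± 0.15 (adjusted p = 0.0105; 0.0507 without WT macrophage array 1). Pkm, the pyruvate kinase of most tissues, read 11.81, 11.95 and 11.83 in WT TAMs, against 11.62, 11.59 and 11.60 in WT macrophages. All WT TAM arrays were higher, yet the call on its small difference of 0.26 ± 0.07 (adjusted p = 0.0434) was lost on leaving out any of the 6 arrays (adjusted p up to 0.125). Pgk1, the phosphoglycerate kinase, differed by 0.22 (adjusted p = 0.0934). Mouse Tpi1, Pgk1, Pgam1 and Ldha have processed copies elsewhere in the genome, and whether their probe sets also read such copies was not tested.

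At the end of the pathway, only the transporter Slc16a1 was called among 4 genes of pyruvate and lactate (5.89% of all genes were called higher). All 4 had positive differences. Slc16a1 (MCT1), which carries lactate and pyruvate across the membrane, read 8.45, 8.16 and 8.35 in WT TAMs, against 7.39, 7.54 and 7.38 in WT macrophages. It rose by 0.88 ± 0.18 (1.84-fold, adjusted p = 0.00842) with no overlap. Slc16a3 (MCT4), the lactate exporter of glycolytic cells, differed by 0.57 (adjusted p = 0.187). Ldha, the lactate dehydrogenase subunit that favours lactate, read 7.71, 7.72 and 7.66 in WT TAMs, against 6.85, 7.40 and 7.45 in WT macrophages, a difference of 0.47 that missed the threshold (adjusted p = 0.0564). Pdk1, a kinase that inhibits pyruvate dehydrogenase, differed by 0.45 (adjusted p = 0.0657).

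Of the HIF factors and oxygen sensors, Egln1 (PHD2), the main HIF prolyl hydroxylase and itself a HIF target, was called in WT co-culture. It read 8.56, 8.58 and 8.43 in WT TAMs, against 7.87, 7.93 and 7.96 in WT macrophages, and rose by 0.60 ± 0.10 (adjusted p = 0.00261). Epas1 (HIF-2 alpha) read 7.43, 7.80 and 7.03 in WT TAMs, against 5.87, 6.31 and 6.10 in WT macrophages. Its groups did not overlap and its difference of 1.32 was among the largest, but its SE of 0.40 left it just outside the threshold (adjusted p = 0.0518). Hif1a (HIF-1 alpha) differed by 0.23 (95% interval -0.12 to 0.58), Egln3 (PHD3) by 0.40 and the histone demethylase Kdm3a by 0.16, none of them called.

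The HIF targets outside glycolysis held the largest called differences of both signs among the 32 genes. P4ha2, the second collagen prolyl hydroxylase subunit, read 6.45, 7.23 and 6.51 in WT TAMs, against 5.42, 5.23 and 5.24 in WT macrophages. P4ha2 rose by 1.43 ± 0.17 (2.70-fold, adjusted p = 0.000327), and by 1.19 without WT TAM array 2 (adjusted p = 8.06e-05). P4ha1 read 10.15, 10.49 and 10.01 in WT TAMs, against 9.34, 9.27 and 9.20 in WT macrophages, and rose by 0.95 ± 0.12 (adjusted p = 0.000462). Both subunits were thus clear of the WT macrophage arrays. WT TAM array 2, the highest array for both, was also the highest array for the stromal markers. Whether cells that carry these markers had a part in the 2 results was not tested.

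Mif and Higd1a rose as well. Mif read 9.71, 10.14 and 9.67 in WT TAMs, against 8.63, 8.64 and 8.60 in WT macrophages, and rose by 1.22 ± 0.12 (2.33-fold, adjusted p = 0.000127). Higd1a, a small protein of the respiratory chain that is induced by low oxygen, read 6.68, 6.61 and 6.70 in WT TAMs, against 5.76, 6.02 and 6.05 in WT macrophages. It rose by 0.72 ± 0.13 (adjusted p = 0.00365), while the mitophagy receptor Bnip3 differed by 0.17 (95% interval -0.22 to 0.55) with overlapping groups. Car12, a carbonic anhydrase at the cell surface, stayed between 4.59 and 4.85 on all 12 arrays. Ero1l, the oxidase that helps form disulfide bonds, read 10.27, 11.58 and 10.17 in WT TAMs, against 10.57, 10.52 and 10.41 in WT macrophages. Here 1 WT TAM array lay above and 2 lay below the WT macrophage arrays, and without WT TAM array 2 the difference of 0.18 became -0.27.

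Ndrg1 had the largest negative difference, and was called lower as Hk2 and Pfkfb3 were. This gene, a stress-responsive HIF target also tied to cell differentiation, read 9.83, 10.21 and 9.25 in WT TAMs, against 12.47, 12.44 and 12.36 in WT macrophages. It was more than 2 log2 units lower on each WT TAM array, and it fell by 2.66 with an SE of 0.42 (a 6.32-fold difference, adjusted p = 0.00187). A second Ndrg1 probe set read 4.88, 5.84 and 5.17 in WT TAMs, against 7.83, 7.76 and 7.49 in WT macrophages, the same order.

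**Figure D1:**
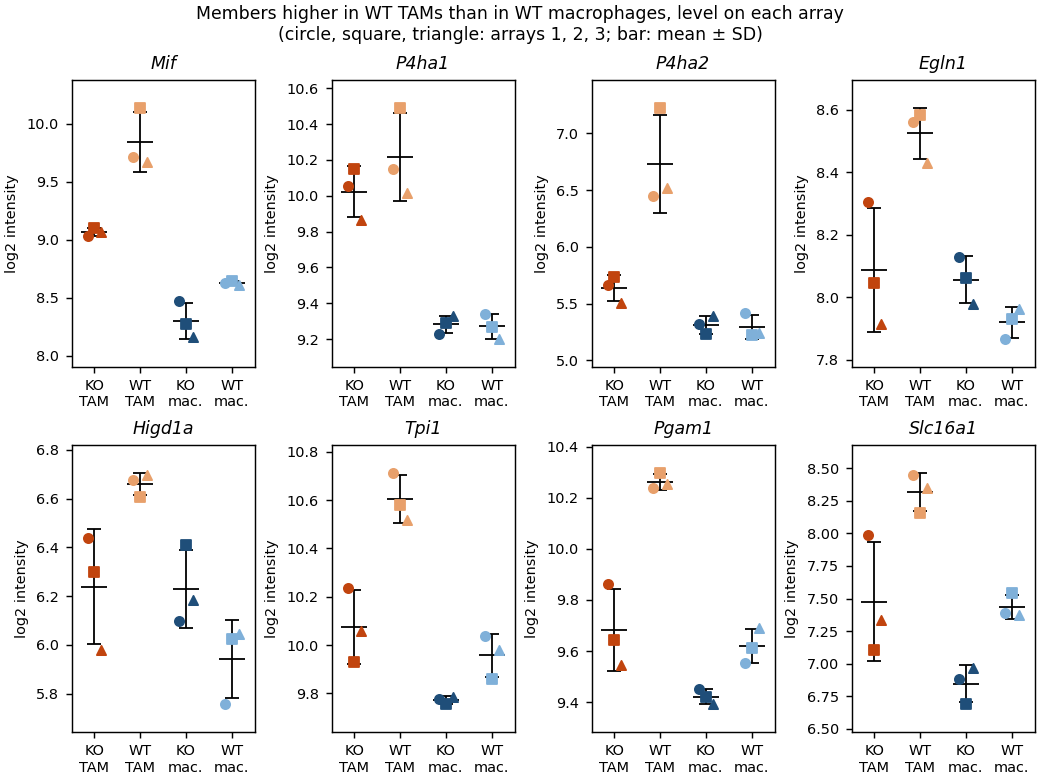
Level (log2 intensity, vertical axis) of 8 genes called higher in WT TAMs, on each of the 3 arrays of KO TAMs, WT TAMs, KO macrophages and WT macrophages, with the mean and SD as bars. WT TAM arrays lie above WT macrophage arrays in all 8 panels, while KO TAM arrays lie clear of KO macrophage arrays in the panels of Mif, P4ha1, P4ha2, Tpi1, Pgam1 and Slc16a1 and overlap them for Egln1 and Higd1a.

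Fewer of the genes passed the test in co-culture of KO macrophages. Against KO macrophages, 2 of 32 genes were called higher in KO TAMs (2.9% of all genes were) and 0 were called lower (3.63% of all genes), with a median difference of 0.16, and -0.013 over all genes. At an unadjusted p under 0.05, limma gave 10 genes higher (9.04% of all genes were) and 2 lower (11.1% of all genes). Under the other settings tried, the called total ran from 2 to 6. The total of 6 came without KO TAM array 3, where 7.48% of all genes were called (6.53% with all arrays). The called share of all 22180 genes ran from 2.28% with only the arrays of the comparison to 12.2% with array weights. With only genes above a level of 5 on at least 3 arrays, 1947 of 12981 genes were called, and 5 of 30 from the set. Mif read 9.03, 9.10 and 9.06 in KO TAMs, against 8.47, 8.27 and 8.16 in KO macrophages, and rose by 0.77 ± 0.12 (1.70-fold, adjusted p = 0.00368). P4ha1 read 10.05, 10.15 and 9.87 in KO TAMs, against 9.23, 9.29 and 9.33 in KO macrophages, and rose by 0.74 ± 0.12 (adjusted p = 0.00402). Both calls held on leaving out each array in turn.

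Many of the remaining genes differed in the same direction in KO co-culture without being called. In KO co-culture, Slc16a1 differed by 0.63 (adjusted p = 0.065), Hk1 by 0.28 (adjusted p = 0.0513), Tpi1 by 0.30 (adjusted p = 0.0851) and Pgam1 by 0.26 (adjusted p = 0.111), and in each the KO TAM arrays lay above the KO macrophage arrays. Pfkfb3 read 8.07, 8.60 and 8.80 in KO TAMs, against 9.12, 9.03 and 9.13 in KO macrophages, a difference of -0.60 (adjusted p = 0.0749) with no overlap. Pgk1 and Pkm had the opposite sign to WT co-culture. Pgk1 read 10.27, 10.39 and 10.33 in KO TAMs, against 10.50, 10.50 and 10.49 in KO macrophages (difference -0.17, adjusted p = 0.231), and Pkm differed by -0.11 (adjusted p = 0.455).

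KO TAM array 1 set the reading of several HIF genes. Ndrg1 read 10.05, 12.11 and 11.97 in KO TAMs, against 12.31, 12.31 and 12.29 in KO macrophages. KO TAM array 1 lay near the WT TAM level and the other 2 KO TAM arrays near the KO macrophage level, which gave a difference of -0.92 (adjusted p = 0.25), and -0.26 without that array. The second Ndrg1 probe set read 5.30, 7.17 and 7.43 in KO TAMs, against 7.64, 7.80 and 7.31 in KO macrophages. Epas1 read 7.23, 5.82 and 5.10 in KO TAMs, against 4.97, 4.97 and 4.95 in KO macrophages, so that the 3 KO TAM arrays spread over more than 2 log2 units. Its difference of 1.08 (adjusted p = 0.14) was 0.49 without KO TAM array 1. Hif1a read 10.01, 9.35 and 9.21 in KO TAMs, against 9.25, 9.23 and 9.29 in KO macrophages, a difference of 0.27 that was 0.028 without KO TAM array 1.

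**Figure D2:**
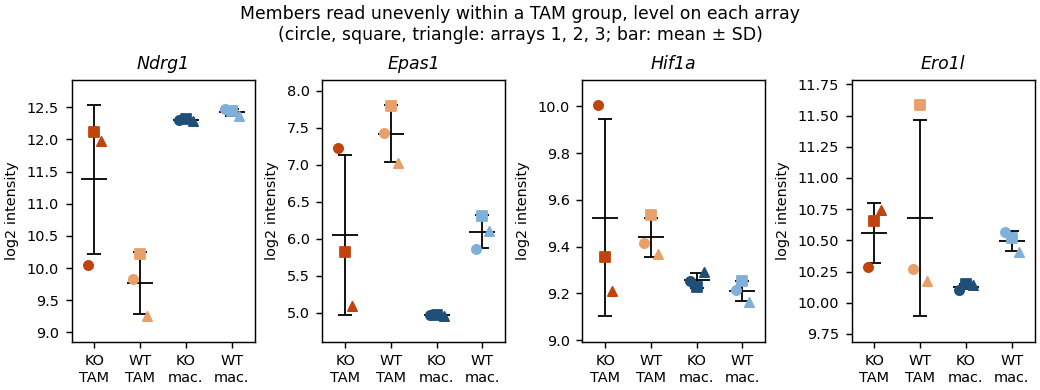
Level (log2 intensity, vertical axis) of Ndrg1, Epas1, Hif1a and Ero1l on each array of the 4 groups, with the mean and SD as bars. KO TAM array 1 (circle) is far from the other 2 KO TAM arrays for Ndrg1, Epas1 and Hif1a, and WT TAM array 2 (square) is far from the other 2 WT TAM arrays for Ero1l.

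The co-culture differences of both genotypes share no array and can be set side by side. They had the same sign in 28 of the 32 genes (87.5%), and in 63.3% of all genes. The KO difference was the smaller in size in 24 of 32 genes (75%), and in 53.5% of all genes. Pearson's r between the KO and WT differences was 0.837 across the 32 genes, against 0.678 across all genes, and 0.622 across the 32 genes without KO TAM array 1. Genes are not independent replicates, so these are descriptions.

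The difference between the genotypes in their co-culture response was tested as an interaction. Of the 32 genes 0 were called (0.104% of all genes were called with a positive and 0.0902% with a negative difference), with a median of -0.18, and -0.023 over all genes. At an unadjusted p under 0.05, limma gave 1 gene with a positive (4.17% of all genes were) and 8 with a negative interaction (5.44% of all genes). P4ha2 came nearest, with a rise in KO co-culture that was smaller by 1.11 on the log2 scale (interaction -1.11 ± 0.24, adjusted p = 0.104), then Egln1 (-0.57 ± 0.14, adjusted p = 0.175) and Higd1a (-0.71 ± 0.18, adjusted p = 0.183). Egln1 read 8.30, 8.04 and 7.91 in KO TAMs, against 8.13, 8.06 and 7.98 in KO macrophages, and Higd1a 6.44, 6.30 and 5.98 in KO TAMs, against 6.10, 6.41 and 6.18 in KO macrophages, so both overlapped between the KO groups. Pgk1 and Pkm, with opposite signs in the 2 genotypes, gave interactions of -0.39 (adjusted p = 0.219) and -0.37 (adjusted p = 0.236). The largest estimate was that of Ndrg1, 1.73 ± 0.60 (adjusted p = 0.352).

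The count of interactions changed when arrays were left out or weighted. Leaving out an array that lies far from its fellows lowers the pooled spread by construction, and the part of this in the counts was not tested. With KO TAM array 1 left out, 3 genes were called: Ndrg1 (2.40, adjusted p = 0.0021), Egln1 (-0.68, adjusted p = 0.0168) and Higd1a (-0.81, adjusted p = 0.044). With WT TAM array 2 left out, P4ha2 was called (-0.86, adjusted p = 0.0146). With both left out 8 genes were called, namely Ndrg1, Ero1l, Hk2 and Pfkfb3 with positive and P4ha2, Egln1, Higd1a and Pgam1 with negative interactions, and with array weights 6 were called. Calls over all genes grew under the same settings, to 444 (2.0%) without KO TAM array 1, 247 (1.11%) without WT TAM array 2, 1496 (6.74%) without both and 761 (3.43%) with array weights, against 43 with all 12 arrays.

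**Figure D3:**
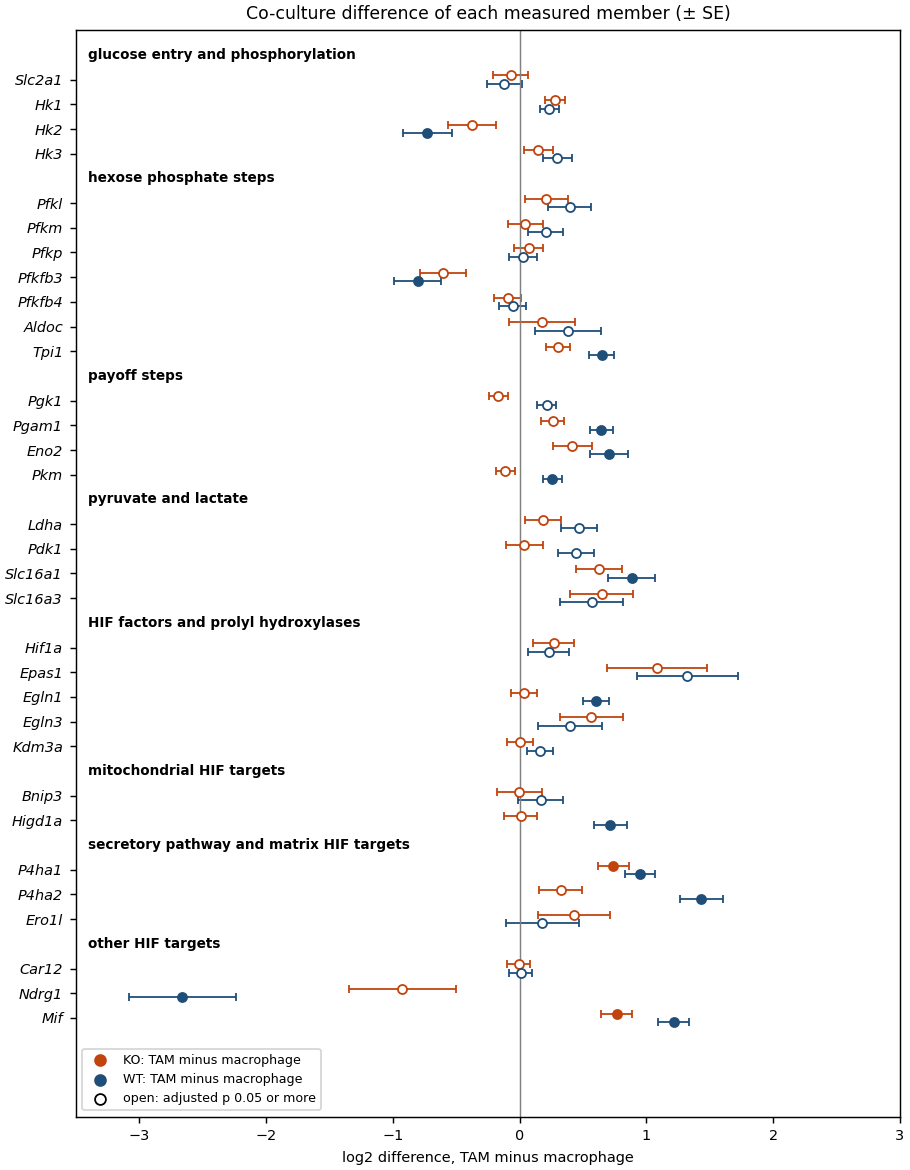
Co-culture difference (log2, TAM minus macrophage, horizontal axis) of the 32 measured genes in KO cells and in WT cells, with the SE as bars and filled points for genes called at an adjusted p under 0.05. In KO cells 2 points are filled (Mif and P4ha1), in WT cells 13, and the 2 genotypes differ most for Ndrg1.

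Between genotypes, most called genes of the set were lower in KO cells, in TAMs and in macrophages. Against WT TAMs, 15 of 32 genes were called lower in KO TAMs (7.19% of all genes were) and 2 were called higher (5.03% of all genes), with a median difference of -0.43, and 0.024 over all genes. With only the 6 TAM arrays in the fit, 7 genes were called, all lower (2.09% of all genes were called lower and 0.784% higher in that fit). In macrophages 6 of 32 genes were called lower in KO (6.13% of all genes) and 2 higher (5.19% of all genes), with a median of -0.19, and 0.038 over all genes. With only the 6 macrophage arrays in the fit, 15 genes were called lower (11.2% of all genes were) and 2 higher (10.1% of all genes). The fit with all 12 arrays thus gave more calls in TAMs, and the fits with only the arrays of each comparison gave more in macrophages. The genotype comparisons share arrays with the co-culture comparisons, and all of them carry the difference in sex-linked genes given above.

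Slc2a1, Pfkp and Hk1 were lower in KO cells in both states. Slc2a1 read 8.75, 8.54 and 8.69 in KO TAMs, against 9.32, 9.83 and 9.22 in WT TAMs, and fell by 0.79 with an SE of 0.14 (adjusted p = 0.00317). In macrophages Slc2a1 read 8.81, 8.68 and 8.71 in KO, against 9.58, 9.64 and 9.50 in WT, and fell by 0.84 with an SE of 0.14 (adjusted p = 0.00256). Thus no KO array of either state reached any WT array of the same state. Pfkp, the platelet form of phosphofructokinase, read 8.85, 8.42 and 8.58 in KO TAMs, against 9.43, 9.26 and 9.49 in WT TAMs, and fell by 0.78 (adjusted p = 0.00105). It read 8.65, 8.48 and 8.50 in KO macrophages, against 9.41, 9.32 and 9.36 in WT macrophages, and fell by 0.82 (adjusted p = 0.00106). Their interactions were near 0 (0.049 for Slc2a1, 95% interval -0.38 to 0.47, and 0.041 for Pfkp). Hk1 fell by 0.32 in KO TAMs (adjusted p = 0.0184, up to 0.0675 without WT TAM array 1 or KO TAM array 2) and by 0.36 in KO macrophages (adjusted p = 0.0103).

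Pfkfb3 had the opposite sign in both states. It read 8.07, 8.60 and 8.80 in KO TAMs, against 7.53, 7.99 and 7.34 in WT TAMs, and rose by 0.87 ± 0.18 (adjusted p = 0.0093). It read 9.12, 9.03 and 9.13 in KO macrophages, against 8.40, 8.49 and 8.38 in WT macrophages, and rose by 0.67 ± 0.18 (adjusted p = 0.035, up to 0.106 on leaving out any of the 6 arrays). Pfkfb3 was thus called higher in KO cells of both states, with no overlap in either. Aldoc read 6.65, 6.17 and 5.50 in KO TAMs, against 7.17, 6.45 and 7.20 in WT TAMs, and its difference of -0.83 was not called (adjusted p = 0.0585). Tpi1 fell by 0.53 in KO TAMs, against WT TAMs (adjusted p = 0.00379), and differed by -0.19 in macrophages (adjusted p = 0.256).

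All 4 measured genes of the payoff steps were called lower in KO TAMs (7.19% of all genes were). Pkm read 11.11, 11.06 and 11.17 in KO TAMs, against 11.81, 11.95 and 11.83 in WT TAMs, and fell by 0.75 with an SE of 0.07 (a 1.68-fold difference, adjusted p = 0.000154). Pgk1 read 10.27, 10.39 and 10.33 in KO TAMs, against 11.11, 10.98 and 10.94 in WT TAMs, and fell by 0.68 with an SE of 0.08 (adjusted p = 0.000243). The Pgk1 gene lies on the X chromosome, and the arrays of the 2 genotypes also differ in Xist. Pgam1 fell by 0.58 (adjusted p = 0.00162) and Eno2 by 0.58 (adjusted p = 0.0273, up to 0.102 on leaving out WT TAM array 1 or 2 or KO TAM array 2 or 3). In none of the 4 genes did the KO TAM and WT TAM arrays overlap (11.8% of all genes were lower in KO TAMs without overlap).

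In macrophages the same 4 genes had negative differences of smaller size. Pkm read 11.26, 11.21 and 11.20 in KO macrophages, against 11.62, 11.59 and 11.60 in WT macrophages, and fell by 0.38 with an SE of 0.07 (adjusted p = 0.00704). Pgk1 read 10.50, 10.50 and 10.49 in KO macrophages, against 10.80, 10.79 and 10.79 in WT macrophages, a called difference of -0.29 (adjusted p = 0.0269) that was lost on leaving out any of the 6 arrays (adjusted p up to 0.084). Pgam1 (-0.20, adjusted p = 0.196) and Eno2 (-0.29, adjusted p = 0.268) were not called. Whether a genotype difference was larger in TAMs than in macrophages is the interaction above, which called none of the 4. The proliferation genes moved in the same direction, and their part in the result was not tested. Of these, 9 of 9 were called lower in KO TAMs (7.19% of all genes) and 8 of 9 in KO macrophages (6.13% of all genes).

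Lactate transporters and Pdk1 were lower in KO TAMs too. Slc16a1 read 7.99, 7.10 and 7.34 in KO TAMs, against 8.45, 8.16 and 8.35 in WT TAMs, and fell by 0.84 with an SE of 0.18 (adjusted p = 0.011). Slc16a3 read 7.21, 6.41 and 6.0 in KO TAMs, against 7.44, 7.80 and 7.10 in WT TAMs. The groups overlapped through KO TAM array 1, and the call on its difference of -0.91 (adjusted p = 0.0333) was lost without WT TAM array 1 or 2 or KO TAM array 2 or 3 (up to 0.116). Slc16a3 read 5.92, 5.82 and 5.93 in KO macrophages, against 6.90, 6.94 and 6.80 in WT macrophages, nearly 1 log2 unit apart (difference -0.99 ± 0.25, adjusted p = 0.0246). That call was lost on leaving out any of the 6 arrays (up to 0.0798), with 1 shared SE that also holds the wide TAM groups. Pdk1 read 6.83, 6.55 and 6.30 in KO TAMs, against 7.55, 7.23 and 7.27 in WT TAMs, and fell by 0.79 with an SE of 0.14 (adjusted p = 0.00387). Ldha was called between genotypes in neither state (-0.11 in TAMs, adjusted p = 0.70, and 0.17 in macrophages, adjusted p = 0.522).

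The HIF factors differed by isoform. Hif1a differed by 0.085 between KO TAMs and WT TAMs (95% interval -0.26 to 0.43) and by 0.046 between KO and WT macrophages (95% interval -0.30 to 0.39). Epas1 read 7.23, 5.82 and 5.10 in KO TAMs, against 7.43, 7.80 and 7.03 in WT TAMs, a called difference of -1.37 (adjusted p = 0.0432). KO TAM array 1 lay within the WT TAM range, and the call was lost on leaving out any array but that one (adjusted p up to 0.137), while without it the difference was -1.96 (adjusted p = 0.000256). In macrophages Epas1 read 4.97, 4.97 and 4.95 in KO, against 5.87, 6.31 and 6.10 in WT, a difference of -1.13 (adjusted p = 0.0933) without overlap. Egln1 fell by 0.44 in KO TAMs (adjusted p = 0.0161, up to 0.0626 without WT TAM array 1 or KO TAM array 2 or 3), and differed by 0.14 in macrophages (adjusted p = 0.46). Kdm3a, a demethylase that needs oxygen as its substrate, read 8.62, 8.61 and 8.65 in KO macrophages, against 8.17, 8.16 and 8.16 in WT macrophages, and rose by 0.46 ± 0.10 (adjusted p = 0.0118). In TAMs the Kdm3a difference was 0.31 (adjusted p = 0.0721).

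Of the remaining HIF targets, P4ha2, Mif and Ndrg1 were called between KO TAMs and WT TAMs. P4ha2 read 5.67, 5.74 and 5.51 in KO TAMs, against 6.45, 7.23 and 6.51 in WT TAMs, and fell by 1.09 with an SE of 0.17 (adjusted p = 0.0017). Mif fell by 0.78 with an SE of 0.12 (adjusted p = 0.00181). For both, the KO TAM arrays lay between the macrophage arrays and the WT TAM arrays. Ndrg1 was called higher in KO TAMs (1.61 ± 0.42, adjusted p = 0.0278), although KO TAM array 1 (10.05) lay within the WT TAM range, and the call was lost without WT TAM array 1 or 3 or KO TAM array 2 or 3 (up to 0.112). Without KO TAM array 1 the Ndrg1 difference was 2.28 (adjusted p = 5.61e-05). In macrophages none of these 3 genes was called between genotypes, with differences of 0.018 for P4ha2, -0.32 for Mif and -0.12 for Ndrg1. P4ha1, Ero1l, Bnip3, Car12 and Higd1a were called between genotypes in neither state, with Higd1a nearest in TAMs (-0.42, adjusted p = 0.054).

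**Figure D4:**
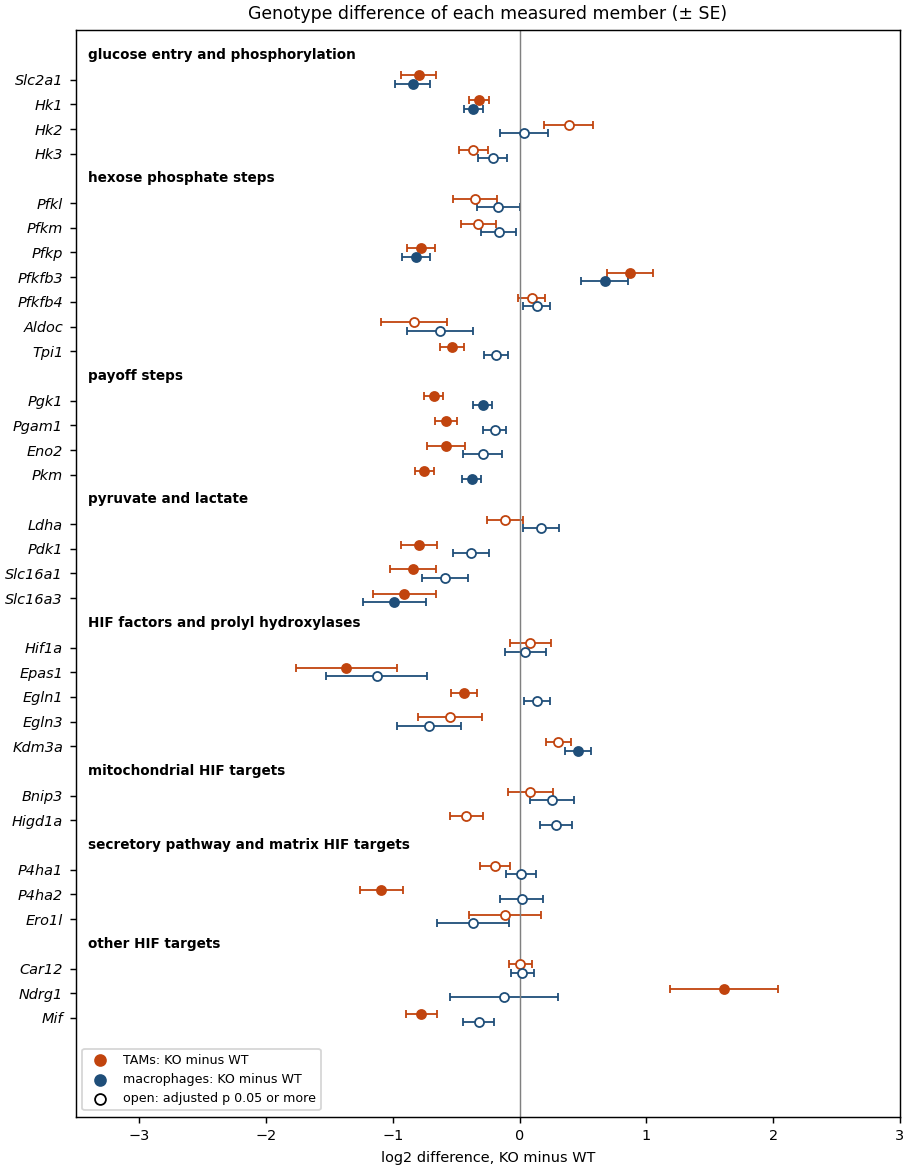
Genotype difference (log2, KO minus WT, horizontal axis) of the 32 measured genes in TAMs and in macrophages, with the SE as bars and filled points for genes called at an adjusted p under 0.05. In TAMs 17 points are filled, 15 of them left of 0, and in macrophages 8, of which 6 are left of 0.

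Neighbouring pathways were counted in the same way. Of 16 other glycolysis genes, 1 was called higher in WT co-culture (5.89% of all genes were). It was Slc2a8, a glucose transporter of intracellular membranes (0.41). In KO co-culture 0 were called. There, limma gave 0 higher and 1 lower at an unadjusted p under 0.05 (9.04% of all genes were higher and 11.1% lower). Gapdh, the dehydrogenase in the middle of the pathway and often used for scaling, read 12.54, 12.48 and 12.56 in KO TAMs, against 12.85, 12.83 and 12.92 in WT TAMs, and fell by 0.34 (adjusted p = 0.00843). In macrophages Gapdh fell by 0.41 in KO (adjusted p = 0.00341), and its co-culture differences were 0.14 in KO and 0.073 in WT. Of the 16 genes, 1 was called higher in KO macrophages (Slc16a7, 0.62, adjusted p = 0.0303) and 1, Gapdh, lower (5.19% and 6.13% of all genes). In KO TAMs, against WT TAMs, 0 were called higher and 1, Gapdh, lower (5.03% and 7.19% of all genes). The median genotype difference of the 16 was 0.10 in macrophages (11 positive, 5 negative) and 0.073 in TAMs (10 positive, 6 negative). Gapdh has many processed copies in the mouse genome. Ldhb, the lactate dehydrogenase subunit that favours pyruvate, was called in no comparison.

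Among 11 genes around pyruvate dehydrogenase, 2 were higher and 1 was lower in WT co-culture (5.89% and 5.66% of all genes), 0 in KO co-culture, and 2 were lower in KO TAMs than in WT TAMs (7.19% of all genes). The list is small, and it was not tested against all genes. The mitochondrial pyruvate carrier subunit Mpc1 (0.64, adjusted p = 0.0402) and the phosphatase subunit Pdp1 (0.83, adjusted p = 0.035), which activates the complex, were higher, and the X-linked subunit Pdha1 (-0.31, adjusted p = 0.0182) was lower in WT TAMs. Each of these 3 calls was lost on leaving out any WT macrophage array, and the first 2 also without WT TAM array 1 or 3. Pdk4, the kinase induced by fasting, read 6.33, 5.71 and 4.73 in KO TAMs, against 6.66, 8.84 and 7.08 in WT TAMs, a called difference of -1.94 (adjusted p = 0.0234, up to 0.0907 without KO TAM array 2 or 3). Of 6 pentose phosphate genes, Taldo1 was higher in WT co-culture (0.54, adjusted p = 0.043, lost without any WT macrophage array, up to 0.122). Pgd, the second dehydrogenase of that pathway, was lower in KO macrophages (-0.56, adjusted p = 0.00385) and in KO TAMs (-0.39, adjusted p = 0.0243, up to 0.0661 without WT TAM array 2 or KO TAM array 3).

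A few glycogen and gluconeogenesis genes were called in co-culture of both genotypes. Gyg, the protein primer of glycogen, read 11.37, 10.45 and 10.41 in KO TAMs, against 9.78, 9.84 and 9.89 in KO macrophages (0.91, adjusted p = 0.0242), and 10.83, 10.47 and 10.85 in WT TAMs, against 9.82, 9.80 and 9.65 in WT macrophages (0.96, adjusted p = 0.0114). The KO call was lost without any KO macrophage array (up to 0.0863) and the WT call without WT macrophage array 3 (0.0505). Pygl, which breaks glycogen down, read 8.21, 8.31 and 8.07 in KO TAMs, against 8.86, 8.82 and 8.87 in KO macrophages, and fell by 0.65 (adjusted p = 0.0151, up to 0.0585 without any KO macrophage array). In WT co-culture Pygl fell by 0.92 (adjusted p = 0.00118). Of the 10 glycogen genes tested, 1 was called higher and 3 lower in KO co-culture (2.9% and 3.63% of all genes). In WT co-culture 1 was called higher and 1 lower (5.89% and 5.66% of all genes). Pck2, the mitochondrial enzyme that makes phosphoenolpyruvate, fell by 0.76 in KO co-culture (adjusted p = 0.0156, up to 0.0667 without any KO macrophage array) and by 0.90 in WT co-culture (adjusted p = 0.00324).

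The HIF machinery itself gave 2 calls in WT co-culture, both lower, among 10 genes (5.66% of all genes were called lower). Egln2 (PHD1), the sister enzyme of Egln1, read 7.05, 6.97 and 7.09 in WT TAMs, against 8.81, 8.87 and 8.82 in WT macrophages, and fell by 1.80 with an SE of 0.34 (a 3.48-fold difference, adjusted p = 0.00457). Egln2 read 7.07, 8.66 and 8.84 in KO TAMs, against 9.17, 9.14 and 9.28 in KO macrophages. As for Ndrg1, KO TAM array 1 stood at the WT TAM level while the other 2 KO TAM arrays did not, and the KO difference was -1.01 (adjusted p = 0.103) with all arrays and -0.45 (adjusted p = 0.0136) without array 1. Thus the 2 sensors moved in opposite directions in WT TAMs, Egln1 upward and Egln2 downward. Cited2, which competes with HIF for its coactivator Ep300, fell by 0.74 in WT co-culture (adjusted p = 0.0013). Vhl, the ligase subunit that removes hydroxylated HIF, was called in no comparison, and Arnt was higher in KO TAMs than in WT TAMs by 0.29 (adjusted p = 0.0293, up to 0.105 without WT TAM array 3 or KO TAM array 1 or 2).

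A further 28 HIF targets gave 8 genes higher and 1 lower in WT co-culture (5.89% and 5.66% of all genes), and 4 higher and 1 lower in KO co-culture (2.9% and 3.63% of all genes). Cxcr4, the chemokine receptor for Cxcl12, read 11.38, 9.09 and 8.79 in KO TAMs, against 7.43, 7.31 and 7.25 in KO macrophages, and 10.44, 9.58 and 9.57 in WT TAMs, against 7.17, 7.26 and 7.28 in WT macrophages. It rose by 2.42 ± 0.51 in KO co-culture (5.37-fold, adjusted p = 0.0159, up to 0.0609 without any KO macrophage array) and by 2.62 ± 0.51 in WT co-culture (6.16-fold, adjusted p = 0.00587). Vegfa, the vessel growth factor, read 9.50, 9.85 and 9.66 in KO TAMs, against 7.64, 7.37 and 7.49 in KO macrophages, and rose by 2.17 ± 0.39 (4.50-fold, adjusted p = 0.00749). It read 8.72, 10.64 and 8.63 in WT TAMs, against 8.11, 8.25 and 8.14 in WT macrophages, a difference of 1.16 that was not called (adjusted p = 0.0831) and was 0.51 without WT TAM array 2.

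Plod1, a collagen lysyl hydroxylase, was called in 4 comparisons. It rose in KO co-culture by 0.59 (adjusted p = 0.00319) and in WT co-culture by 0.43 (adjusted p = 0.00945). Between genotypes it fell by 0.39 in KO TAMs (adjusted p = 0.0165, up to 0.0646 without WT TAM array 1 or KO TAM array 2 or 3) and by 0.55 in KO macrophages (adjusted p = 0.00289). Fam162a, a mitochondrial HIF target, rose by 0.65 in WT co-culture (adjusted p = 0.00888), and was lower by 0.86 on the log2 scale in KO TAMs than in WT TAMs (difference -0.86, adjusted p = 0.00187). Lox, which crosslinks collagen, read 8.93, 9.18 and 9.22 in KO macrophages, against 10.97, 10.88 and 10.91 in WT macrophages, and fell by 1.81 (adjusted p = 0.00605). Adm, a vasodilator peptide and HIF target, read 4.88, 4.83 and 5.04 in KO TAMs, against 5.02, 7.67 and 4.90 in WT TAMs, and was called in no comparison. WT TAM array 2 was the highest array for Vegfa, Adm, Lox and Plod2 (8.59, against 6.20 and 6.28 on the other 2 WT TAM arrays) as it was for the stromal markers, and the part of these markers in the results was not tested.

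**Figure D5:**
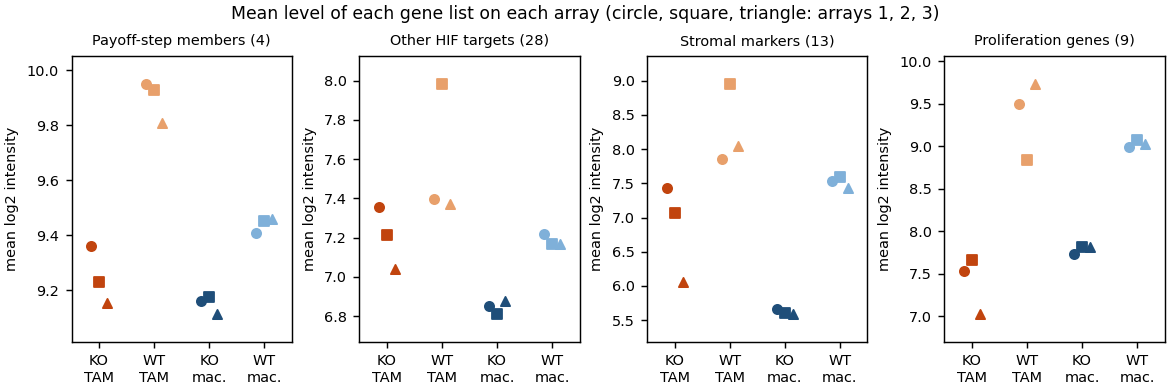
Mean level (log2 intensity, vertical axis) on each array of the 4 genes of the payoff steps, 28 other HIF targets, 13 stromal markers and 9 proliferation genes, in KO TAMs, WT TAMs, KO macrophages and WT macrophages. The KO arrays lie below the WT arrays of the same state for the payoff-step, stromal and proliferation genes, and WT TAM array 2 is the highest array for the other HIF targets and the stromal markers.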

How the data were processed

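Gene expression was measured on 12 single-channel arrays, 3 per group, from total RNA labelled with biotin, per the labels' protocols. The authors deposited intensity values per probe set made with RMA, per the submitters' processing notes, which also name limma without a version. The values are on a linear scale, as their range shows. RMA equalises the distributions of the arrays, so a shift of most genes at once would go unseen. The genome build of the deposited table is not stated in the sources used here.

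Log2 was taken without a pseudocount. Probe sets with 1 gene symbol were kept, and the probe set with the highest mean stood for a gene. Differences were fitted in limma 3.58.1 (R 4.3.3) with lmFit and eBayes on 4 group means without covariates, with 8 residual degrees of freedom, and p was adjusted by Benjamini-Hochberg over all 22180 genes. The fit was tested on simulated data. TAM arrays varied more than macrophage arrays, so the pooled spread understates the error of TAM groups and overstates that of macrophage groups. The precision is limited by the number of arrays.

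The 37 genes and the related and marker lists were chosen with earlier results of these data known. Related genes were picked by a rule, per list and comparison. It took up to 3 called genes with the largest difference and no overlap, and always Vegfa, Adm, Gapdh, Ldhb, Vhl and Arnt. Some picks are not described above in the comparison that picked them. These were Bhlhe40 (1.09) and Tfrc (1.03) in WT co-culture and Phka2 (-0.51) in KO co-culture. Between KO and WT macrophages they were Edn1 (-1.19) and Pck2 (-0.60). Between KO TAMs and WT TAMs they were Plod2 (-2.04), Ugp2 (-0.42), Dlat (-0.34) and Ep300 (0.26). Plod1 and Fam162a are also given in comparisons where other genes had larger differences, which was chosen after their values were seen. Alternatives were the mean of all probe sets, repeated quantile normalization, median centring, a pseudocount of 16, a level filter, eBayes with trend and robust settings, array weights, only the arrays of a comparison, the replicate number as a block, each array left out in turn, and WT TAM array 2 and KO TAM array 1 left out together. Promoter windows came from RefSeq (GRCm38.p6).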

Additional observations from a re-analysis of the deposited data

Results flagged for a closer look

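Ddit4, a HIF target and brake on mTOR signalling, was the only gene of the related lists with a called difference between genotypes in its co-culture response (interaction -1.49 ± 0.25, limma adjusted p = 0.0414). It read 5.64, 5.82 and 5.79 in KO TAMs, against 6.93, 6.74 and 6.82 in KO macrophages, and 5.90, 6.72 and 5.94 in WT TAMs, against 5.67, 5.77 and 5.88 in WT macrophages. The KO difference was -1.08 (adjusted p = 0.00441) and the WT difference 0.41 (adjusted p = 0.18). KO macrophages were higher than WT macrophages by 1.06 (adjusted p = 0.00289). The interaction call was lost with the replicate number as a block and on leaving out any of 9 of the 12 arrays, with an adjusted p up to 0.135.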

How the results depend on the processing

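In KO co-culture the 2 called genes became 4 with repeated quantile normalization, a pseudocount of 16, or trend and robust settings, 5 with the level filter, array weights, or WT TAM array 2 and KO TAM array 1 left out, and 2 to 6 with each array left out. The median, 0.16, became 0.029 with both arrays left out and ran from 0.029 to 0.20 with each array left out. In WT co-culture the 13 calls ran from 10 to 12 with each array left out, and became 15 with median centring or trend and robust settings, 16 with a pseudocount of 16, and 18 with the level filter, array weights or both arrays left out, and the median, 0.34, became 0.25 with both arrays left out (0.25 to 0.40 with each left out). Between macrophages the 8 calls became 15 with array weights, 15 with both TAM arrays left out, 17 with only the macrophage arrays, and 5 without any 1 of the 6 macrophage arrays. Between KO TAMs and WT TAMs the 17 calls became 7 with only the TAM arrays and 11 to 21 with each array left out, with the median between -0.54 and -0.39. The interaction, with 0 calls, gave 6 with array weights, 8 with both arrays left out and 0 to 3 with each left out, with the median between -0.26 and -0.073. Among named genes a difference turned sign and was called only with both arrays left out, and with all 12 arrays it was not called. Ero1l then gave -0.27 in WT co-culture (adjusted p = 0.0362) and 0.47 between KO TAMs and WT TAMs (adjusted p = 0.00299). Gyg gave -0.41 between KO TAMs and WT TAMs (adjusted p = 0.00742). Over all genes, calls ran from 505 to 2705 in KO co-culture (1449 as reported), 1475 to 4049 in WT co-culture (2561), 1403 to 4923 between macrophages (2512), 638 to 4725 between TAM groups (2710) and 14 to 1496 for the interaction (43). The level filter kept 12981 genes, and the other settings all 22180. In WT co-culture the called share of all genes, 11.5%, became 22.9% with the level filter. It became 17.9% with array weights and 18.3% with both arrays left out. Between macrophages the share, 11.3%, became 22.2% with array weights, 20.6% with both TAM arrays left out and 21.3% with only the macrophage arrays. Between TAM groups the share, 12.2%, became 2.88% with only the TAM arrays and 21.3% with array weights. Fewer arrays or fewer residual degrees of freedom account for part of the lower counts by construction, and the other causes were not tested. Deviations of same-numbered arrays correlated between -0.031 and 0.018 between TAMs and macrophages of the same genotype and by 0.271, 0.247 and 0.033 between KO TAMs and WT TAMs, where KO TAM array 3 correlated best with WT TAM array 2, so the numbers were not taken to pair the samples. With the replicate block, calls of the 32 genes were 2, 14, 8, 17 and 0 in KO co-culture, WT co-culture, macrophages, TAMs and interaction, and the interaction called 26 of all genes.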
